A study of Mus musculus with 14 samples.

Results

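Messenger RNA of 44 signalling genes downstream of KIT and the high-affinity IgE receptor was followed in mast cells sorted from mouse ears, as the protocol describes it. The genes were taken from a list of named symbols, and all 44 of 44 were found among the 55487 genes of the deposited count table. All 44 passed the filter on low counts, which left 21014 genes to be tested. They were grouped by what their proteins do into 12 kinases and phosphoinositide 3-kinase (PI3K) subunits, 8 adaptors and exchange factors, 3 phosphatases, 12 genes of calcium release, calcium entry and the calcineurin pathway, 7 brakes on the pathway and 2 STAT5 genes. The 14 libraries fell into 3 groups by their labels. Libraries 1 to 5 hold resident mast cells of untreated mice (n = 5), libraries 6 to 10 those of mice treated with MC903 (n = 5), and libraries 11, 13, 14 and 15 cells from MC903-treated mice that the labels call bone marrow mast cells (n = 4). MC903 is calcipotriol, a vitamin D analogue that gives a dermatitis resembling atopic dermatitis when put on mouse skin. The protocol speaks of resident and integrin β7-positive cells only, and each library was made from a small sorted pool. Strain, age, sex and the number of animals are not given in the sources used here, so p-values measure the spread between libraries, which may be partly technical.

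KIT is the receptor tyrosine kinase for stem cell factor, which mast cells need to survive. The IgE receptor has no kinase of its own: when antigen crosslinks it, the Src-family kinase LYN phosphorylates its tails, SYK is recruited, and the adaptors LAT, LAT2 and SLP-76 (Lcp2) assemble phospholipase C gamma, VAV1 and PI3K. Phospholipase C gamma releases calcium from stores through IP3 receptors, STIM proteins sense the emptied store and open ORAI channels in the plasma membrane, and calcineurin then activates NFAT. Phosphatases such as SHIP1 (Inpp5d) and SHP-1 (Ptpn6), ubiquitin ligases of the CBL family and Sprouty and SPRED proteins restrain the same routes.

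Total counts per library ranged from 13068078 to 31781926. Libraries 7, 8 and 15 had the most genes with a count (34560, 35246 and 32814, against 16025 to 28790 in the other 11). All 12 core mast cell markers were detected in every library. CPM here is edgeR's depth-scaled count over the genes tested, with TMM factors. Their summed level was 88790.1 to 116212 CPM (median 91721) in untreated, 108655 to 165766 CPM (median 146544) in MC903 resident and 108314 to 162751 CPM (median 146904) in bone marrow libraries, so it moved with the groups, and its part in the members' differences was not tested. Library 15 stood apart: its 12 macrophage and dendritic cell markers summed to 16314 CPM, against 99.9, 208 and 419 CPM in the other bone marrow libraries, 65.0 to 193 CPM in MC903 resident and 63.1 to 184 CPM in untreated resident libraries. The complement gene C1qa, which defines macrophages, reached 790 CPM in library 15 and at most 3.34 CPM elsewhere. Of the 10 markers of this list tested, 8 had positive log2 differences in bone marrow against MC903 resident cells and 9 against untreated cells. Cd68 was 3.24 higher than in MC903 resident cells (edgeR adjusted p = 0.0392). H2-Ab1 was 6.26 higher without a call (0.0587). For both, every bone marrow library lay above every MC903 resident one. Against untreated cells only Cd74 was called (0.0361), and its libraries overlapped. The 5 basophil markers summed to 1612 CPM in library 11, of which Mcpt8 made up 980.2 CPM, against 340.3 to 846 CPM in the other 13 libraries. In bone marrow against MC903 resident cells, Mcpt8 was 4.09 higher on the log2 scale without a call (edgeR adjusted p = 0.0770) while Itga2 fell by 1.41 (0.00673). The 8 T cell markers summed to 4.11, 84.1, 32.7 and 48.5 CPM in bone marrow libraries 11, 13, 14 and 15, 4.52 to 44.1 CPM in MC903 resident and 0.338 to 5.95 CPM in untreated libraries. In bone marrow against untreated cells the 7 of them tested all had positive log2 differences (median 4.56), with edgeR adjusted p-values of 0.118 or more. The part that these other cells play in the results was not tested, and for each member called in a bone marrow comparison the value without library 15 is also given. Leaving out library 15 does not remove the higher Cd68 and H2-Ab1 of the other bone marrow libraries. In pooled cells, fewer cells of a type and less RNA per cell cannot be told apart. Counts of mitochondrial genes also separated the untreated libraries (1.22% to 1.70% of the total) from the others (2.14% to 4.24%).

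Levels of different genes were compared per length, as RPKM (CPM per kilobase of exon). By group mean, the proximal adaptor gene Lat2 and the receptor gene Kit stood highest in all 3 groups. The level of Lat2 is uncertain where the counting did not use strand, as 36.3% of its exon bases are also exon of Rfc2 on the opposite strand. Lat2 was at 289 ± 69.6 RPKM in untreated resident (SD, n = 5), 184 ± 33.1 in MC903 resident (SD, n = 5) and 214 ± 71.4 in bone marrow cells (SD, n = 4). Kit followed at 187 ± 57.4, 144 ± 42.9 and 133 ± 33.0 RPKM, and the phosphatase gene Ptpn6 was next at 118 ± 21.4, 132 ± 27.1 and 121 ± 20.2 RPKM. The mean ± SD ranges of Lat2 and Kit overlapped in each group, and so did those of Kit and Ptpn6. In untreated resident cells 12 members lay at or above 50 RPKM, 13 between 10 and 50, 15 between 1 and 10 and 4 below 1. Those 4 were Itpr1, Nfatc2, Rasgrp1 and Pik3r5, at 0.406, 0.209, 0.120 and 0.0289 RPKM. The median member was at 13.5 RPKM in untreated resident, 11.4 in MC903 resident and 12.7 in bone marrow cells.

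**Figure D1:**
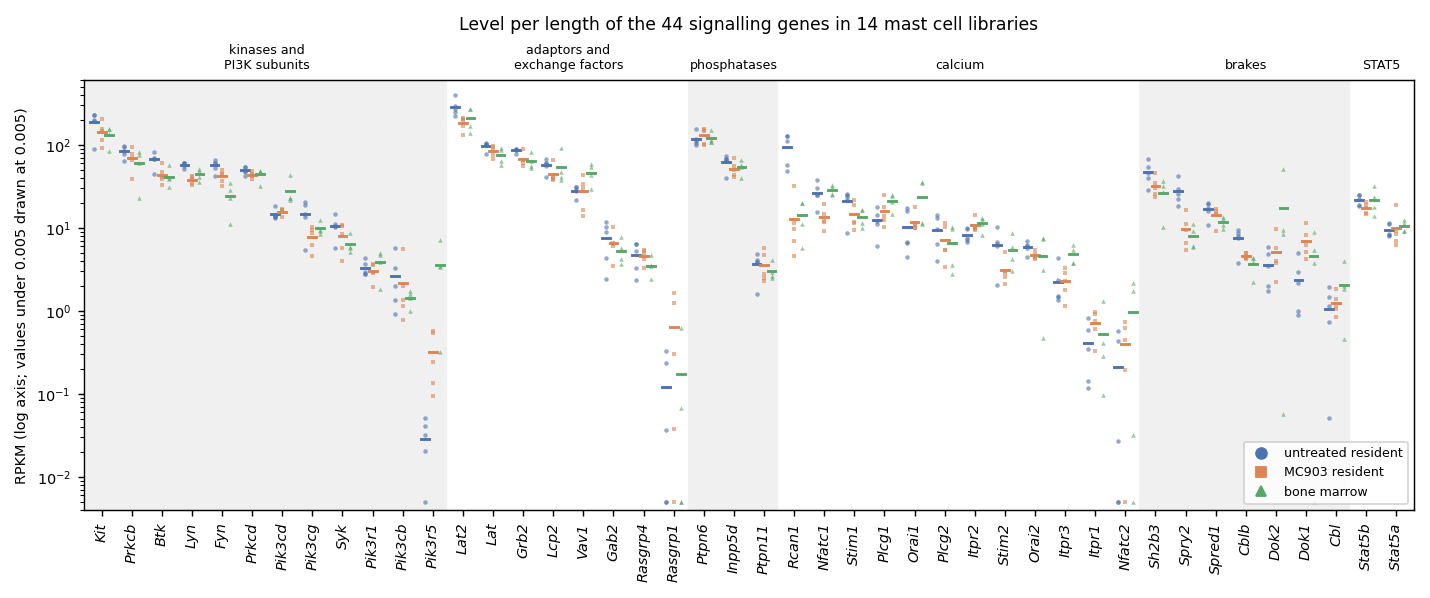
Level per length (RPKM, log axis) of the 44 genes in all 14 libraries, in blocks by role; small points are libraries, horizontal lines group means, and library values under 0.005 are drawn at 0.005. Lat2, Kit and Ptpn6 have the highest means in all 3 groups, and Pik3r5 spans from a mean of 0.0289 RPKM in untreated resident to 3.62 RPKM in bone marrow cells. Lat2 shares exon with a gene on the opposite strand, so its level is uncertain.

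Across the 3 comparisons 7 of the 44 genes were called, meaning an edgeR quasi-likelihood adjusted p (Benjamini-Hochberg over 21014 genes) under 0.05. Between MC903 resident and untreated resident cells 3 members were called, all lower with MC903 (Rcan1, Spry2 and Nfatc1). That is 6.82% of members against 2.25% of all genes tested, of which 0.571% were called higher and 1.68% lower. The split of all genes depended on the scaling and the test, from 120 higher and 353 lower here to 207 and 294 with DESeq2 size factors, 250 and 266 with TMM factors computed on genes averaging 10 CPM or more and 600 and 472 by the DESeq2 Wald test. For bone marrow against MC903 resident cells 2 members were called, both higher in bone marrow (Nfatc1 and Pik3cd). That is 4.55% of members against 2.27% of all genes, of which 1.32% were higher and 0.952% lower. Here the split of all genes turned from 277 higher and 200 lower to 167 and 242 with DESeq2 size factors. Against untreated resident cells, bone marrow cells gave 6 called members, with Pik3r5 and Pik3cd higher and Rcan1, Spry2, Fyn and Cblb lower. That is 13.6% of members against 6.87% of all genes, of which 3.49% were higher and 3.37% lower. Treatment and labelled cell type differ together in bone marrow against untreated cells, so their parts in these differences cannot be told apart. Most members are well expressed, and among the 8209 tested genes averaging 10 CPM or more the called shares were 5.47%, 5.21% and 15.3% in the same order. The members' shares lay near these, so the counts are no result about the members as a list.

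CPM did not overlap between groups for 5 of 44 members with MC903 in resident cells (11.4%, against 5.33% of all genes), for 3 between bone marrow and MC903 resident cells (6.82%, against 8.29%) and for 5 between bone marrow and untreated cells (11.4%, against 10.4%). The median log2 fold change of the members was -0.25, -0.0064 and -0.24 in the 3 comparisons, beside 0.24, -0.28 and -0.14 for all genes and -0.16, 0.18 and -0.006 for genes averaging 10 CPM or more. Scaling moved these medians: with DESeq2 size factors the first comparison's medians became -0.12 for members and 0.40 for all genes, and with TMM factors computed on genes averaging 10 CPM or more -0.07 and 0.45. Genes averaging 10 CPM or more had medians of -0.0231 and 0.0262 under those 2 scalings, nearer to the members'. Without libraries 7, 8 and 15 the medians were -0.0989 for members, 0.0472 for all genes and -0.056 for genes averaging 10 CPM or more. The comparisons share libraries (each of the 3 groups enters 2 comparisons), so they are not independent of each other.

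**Figure D2:**
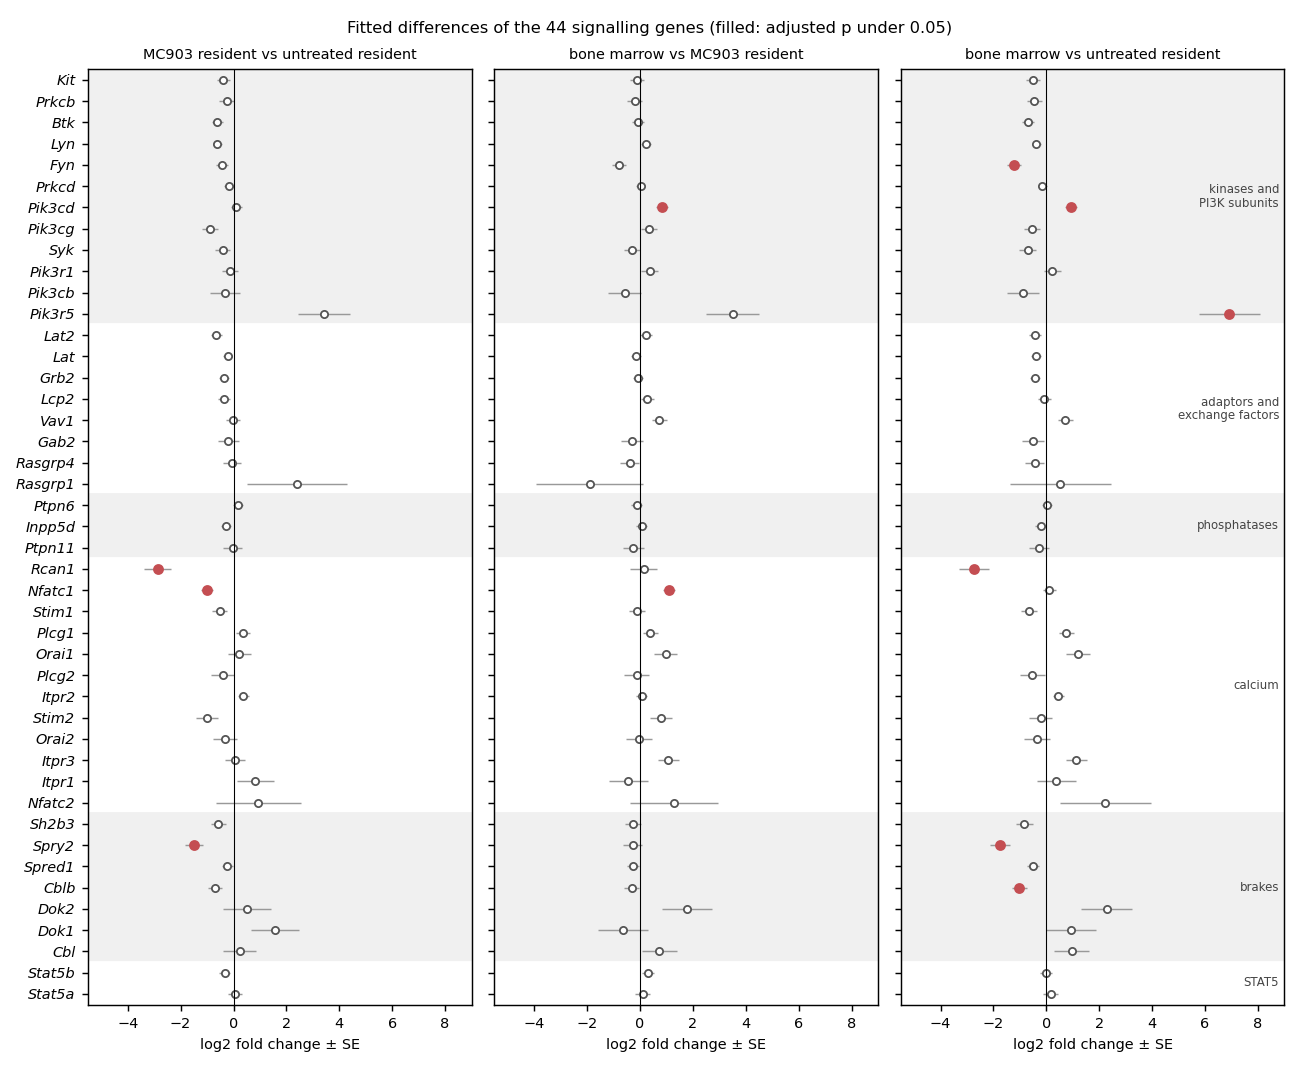
Fitted log2 fold change with its standard error for each of the 44 genes in the 3 comparisons; filled points have an edgeR adjusted p under 0.05. Of the 132 differences 11 are filled, and the largest is Pik3r5 between bone marrow and untreated resident cells, at 6.92.

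Among the kinases, Kit was not called in any comparison. It was at 2022, 1723, 2033, 1779.8 and 789 CPM in untreated libraries 1 to 5, at 1332, 1021, 829.7, 1387 and 1828 CPM in MC903 resident libraries 6 to 10, and at 1195, 1378, 1395 and 762 CPM in bone marrow libraries 11, 13, 14 and 15. Untreated library 5 and bone marrow library 15 were the low ones, and the groups overlapped. The log2 differences were -0.38 ± 0.245 (SE, edgeR adjusted p = 0.603) for MC903 resident against untreated, -0.11 ± 0.260 (0.865) for bone marrow against MC903 resident and -0.50 ± 0.262 (0.289) for bone marrow against untreated cells. Without library 5 the first and last were -0.56 and -0.68, with edgeR adjusted p-values of 0.204 and 0.0741.

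Lyn, the Src-family kinase that starts IgE receptor signalling and also recruits its inhibitors, was at 250.1, 249, 228, 249 and 207 CPM in untreated libraries and at 172, 133, 142, 169 and 159 CPM in MC903 resident libraries. All 5 MC903 libraries lay below all 5 untreated ones. The log2 difference of -0.61 ± 0.164 (SE) missed the threshold (edgeR adjusted p = 0.0553), and it passed without library 5 (0.0323), with the DESeq2 Wald test, with limma voomWithQualityWeights and when only these 2 groups were fitted. Bone marrow libraries held 199.9, 212, 167 and 148 CPM, overlapping both resident groups.

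Fyn, another Src-family kinase, which acts through GAB2 and PI3K, fell in bone marrow against untreated resident cells. Its levels were 230.1, 266, 266, 288 and 187 CPM in untreated, 159.8, 195, 141, 219.9 and 196 CPM in MC903 resident and 151, 99.9, 125 and 48.5 CPM in bone marrow libraries. Every bone marrow library lay below every untreated one, and library 15 was the lowest of all 14. The log2 fold change against untreated cells was -1.22 ± 0.260 (SE, edgeR adjusted p = 0.00472), against -0.98 (0.00765) when library 15 was left out. Fyn (ENSMUSG00000019843.14) lies on mm10 chromosome 10 from 39368855 to 39565381 on the plus strand. Against MC903 resident cells the difference of -0.78 was not called (edgeR adjusted p = 0.120), and it was -0.53 (0.114) with library 15 left out. That difference was called with DESeq2 size factors, with TMM factors computed on genes averaging 10 CPM or more, with the DESeq2 Wald test and without library 11.

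Syk, the kinase recruited to the phosphorylated receptor, was not called. It was at 100.1, 106, 95.1, 136 and 53.1 CPM in untreated, 54.0, 103, 37.6, 98.5 and 78.2 CPM in MC903 resident and 54.5, 48.2, 53.9 and 82.6 CPM in bone marrow libraries. The groups overlapped, and the largest log2 difference was -0.71 ± 0.307 (SE) between bone marrow and untreated cells (edgeR adjusted p = 0.178). Library 15 was the highest bone marrow library for Syk, and leaving it out gave -0.91 (edgeR adjusted p = 0.103). Btk, a Tec-family kinase that acts on phospholipase C gamma, averaged 211 ± 43.8, 139 ± 32.5 and 131 ± 34.5 CPM in the same order. Its lowest edgeR adjusted p was 0.0819 (bone marrow against untreated), and that difference passed without library 4 or 13 and by the DESeq2 Wald test. The protein kinase C genes Prkcb and Prkcd, whose products act on diacylglycerol signals, had edgeR adjusted p-values from 0.390 to 0.957 over the 3 comparisons. For Prkcb, bone marrow libraries 11, 13 and 14 ranged from 469 to 637 CPM while library 15 held 176 CPM. Its log2 difference from untreated cells was -0.46 with library 15 and -0.19 without it.

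The PI3K genes held the largest difference of all members. Pik3cd encodes p110δ, the catalytic subunit that KIT uses in mast cells. It was at 88.3, 87.5, 115, 83.9 and 83.1 CPM in untreated, 103, 105, 98.1, 83.9 and 102 CPM in MC903 resident and 137, 144, 274 and 144 CPM in bone marrow libraries. All 4 bone marrow libraries stood above all 10 resident ones, with library 14 far above the other 3. The rise was 0.93 ± 0.219 (SE) on the log2 scale against untreated (edgeR adjusted p = 0.0104) and 0.83 ± 0.219 against MC903 resident cells (0.0485). Without library 14 they were 0.63 and 0.53, and neither was called (edgeR adjusted p = 0.104 and 0.260). The call against MC903 resident cells did not hold in 8 of 9 fits leaving out a single library, nor in 5 of 7 other alternatives.

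Pik3r5 encodes p101, a regulatory subunit that ties p110γ to G-protein-coupled receptors. It was nearly absent from untreated libraries, with 2, 0, 6, 6 and 4 counts (0.113, 0, 0.225, 0.285 and 0.179 CPM). MC903 resident libraries held 0.521, 3.19, 3.03, 1.36 and 0.759 CPM, and bone marrow libraries 1.80, 19.0, 19.3 and 40.2 CPM. All untreated libraries lay below all MC903 resident libraries, and of the bone marrow libraries only library 11 fell inside the MC903 resident range. The log2 rise in bone marrow against untreated cells was 6.92 ± 1.16 (SE, edgeR adjusted p = 0.000568), a size that rests on very few untreated counts. Library 15, with its macrophage markers, had the highest level, and library 11, the lowest bone marrow library for Pik3r5, also had the lowest bone marrow sum of T cell markers. The part of either cell type in this difference was not tested. Leaving out library 15 gave a log2 difference of 6.33 (edgeR adjusted p = 0.00368). The differences of MC903 resident cells from untreated (3.42) and of bone marrow from MC903 resident cells (3.50) missed the threshold (edgeR adjusted p = 0.0788 and 0.0708). Both passed with the DESeq2 Wald test and with no filter on low counts. The latter also passed without library 11. Pik3r5 (ENSMUSG00000020901.13) lies on mm10 chromosome 11 from 68432121 to 68497849 on the plus strand.

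Pik3r6, which encodes the alternative p110γ partner p84 and is not among the 44, was lower in bone marrow than in untreated resident cells. It was at 194, 184, 238, 229 and 128 CPM in untreated, 115, 153, 115, 148 and 181 CPM in MC903 resident and 75.5, 60.2, 92.6 and 121 CPM in bone marrow libraries, with no overlap between the last and the first group. Its log2 fold change in bone marrow against untreated cells was -1.16 ± 0.240 (SE, edgeR adjusted p = 0.00401), and -1.36 (0.00126) with library 15 left out. Against MC903 resident cells the Pik3r6 difference of -0.71 was not called (edgeR adjusted p = 0.128), and the libraries of these groups overlapped. Per length, Pik3r6 stood at 24.1 ± 7.19 and Pik3r5 at 3.62 ± 2.83 RPKM in bone marrow cells (SD, n = 4). The catalytic gene Pik3cg itself, p110γ, averaged 123 ± 49.1, 66.3 ± 19.6 and 83.8 ± 15.1 CPM and was not called (lowest edgeR adjusted p = 0.131, MC903 resident against untreated). That difference was called without untreated library 5 (0.0143) and with limma voomWithQualityWeights. Pik3cb and Pik3r1 were not called in any comparison.

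None of the 8 adaptor and exchange factor genes was called in any comparison. By edgeR their unadjusted p was under 0.05 in 1, 1 and 2 cases in the order above, and single calls came from other settings (Lat2 without the filter on low counts, Grb2 with the DESeq2 Wald test, Vav1 with limma voomWithQualityWeights). Lat, the scaffold that gathers phospholipase C gamma, GRB2 and SLP-76, was at 216, 286, 286, 295 and 273 CPM in untreated, 262, 189, 209, 239.9 and 266 CPM in MC903 resident and 257, 238, 180.0 and 161 CPM in bone marrow libraries. The groups overlapped, and its log2 differences were -0.22 ± 0.177, -0.16 ± 0.188 and -0.38 ± 0.188 (SE, edgeR adjusted p = 0.720, 0.711 and 0.259). Lat2, a related scaffold also called NTAL, averaged 757 ± 182 CPM in untreated and 482 ± 86.7 CPM in MC903 resident cells with no overlap between their libraries (edgeR adjusted p = 0.132). Of the exon bases of Lat2, 36.3% are also exon of Rfc2 on the opposite strand, so its counts are uncertain where the counting did not use strand. Vav1, which activates RAC, averaged 104 ± 14.8 CPM in untreated, 102 ± 45.3 in MC903 resident and 171 ± 48.0 in bone marrow cells (edgeR adjusted p = 0.151 for the last against the first). Rasgrp1, a RAS exchange factor, had at most 9.10 CPM in any library and 0 counts in 5 of 14, while its relative Rasgrp4 lay between 15.2 and 41.3 CPM in every library. Of the exon bases of Rasgrp4, 18.2% are also exon of Fam98c or Gm16282 on the opposite strand, so the same limit holds for it.

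The 3 phosphatase genes had no call, edgeR adjusted p-values from 0.632 to 0.994 and no unadjusted p under 0.05. Inpp5d encodes SHIP1, the lipid phosphatase that removes the product of PI3K. It was at 516, 561, 509, 505 and 306 CPM in untreated, 378, 316, 329, 526 and 429.7 CPM in MC903 resident and 416, 501, 440.0 and 302 CPM in bone marrow libraries, and the groups overlapped. Its log2 difference was -0.28 ± 0.196 (SE) with MC903 in resident cells, 0.07 ± 0.207 between bone marrow and MC903 resident and -0.21 ± 0.208 between bone marrow and untreated cells (edgeR adjusted p = 0.656, 0.903 and 0.632). Ptpn6 averaged 331 ± 59.9, 369 ± 76.0 and 338 ± 56.5 CPM, and Ptpn11, which encodes the activating phosphatase SHP-2, lay between 12.0 and 42.8 CPM in all 14 libraries.

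The calcium genes held the largest fall of any member with MC903 in resident cells. Rcan1 encodes a regulator that binds and inhibits calcineurin, and it is itself a target of NFAT. It was at 392, 149, 397, 341 and 179 CPM in untreated, 35.5, 30.0, 21.4, 98.0 and 14.2 CPM in MC903 resident and 17.9, 61.9, 34.4 and 62.2 CPM in bone marrow libraries. Every library from MC903-treated mice lay below every untreated one, and MC903 resident library 9 was the highest of those 9. The mean fell from 292 ± 119 CPM (SD, n = 5) to 39.8 ± 33.5 (SD, n = 5) in resident cells, or -2.87 ± 0.518 (SE) on the log2 scale (edgeR adjusted p = 0.00579). Bone marrow cells, at 44.1 ± 21.8 CPM (SD, n = 4), differed from untreated cells by -2.73 ± 0.562 (edgeR adjusted p = 0.00676) and from MC903 resident cells by 0.15 (0.917). Both calls held in every fit that left out 1 library. Without libraries 7, 8 and 15 together the difference in resident cells was -2.56 and missed the threshold (edgeR adjusted p = 0.0512), in a fit with fewer libraries.

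Rcan1 (ENSMUSG00000022951.16, mm10 chromosome 16, 92391953 to 92470867, minus strand) has an outer and an inner start in RefSeq, and the table of counts does not separate them. The windows from 250 bases before to 50 after each start, on GRCm38.p6, are shown because Rcan1 gave the largest called fall and its inner start is the one known for NFAT control. Capitals mark the NFAT core GGAAA on either strand, and matches are descriptions of letters, not binding sites.
Rcan1 inner start, chr16:92400029-92400328, minus strand: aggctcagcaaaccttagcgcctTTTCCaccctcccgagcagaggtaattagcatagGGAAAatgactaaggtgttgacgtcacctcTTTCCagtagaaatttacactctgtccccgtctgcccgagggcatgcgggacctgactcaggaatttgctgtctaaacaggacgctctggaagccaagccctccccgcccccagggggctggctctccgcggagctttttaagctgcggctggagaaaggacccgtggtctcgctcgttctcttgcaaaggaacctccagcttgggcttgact
Rcan1 outer start, chr16:92466120-92466419, minus strand: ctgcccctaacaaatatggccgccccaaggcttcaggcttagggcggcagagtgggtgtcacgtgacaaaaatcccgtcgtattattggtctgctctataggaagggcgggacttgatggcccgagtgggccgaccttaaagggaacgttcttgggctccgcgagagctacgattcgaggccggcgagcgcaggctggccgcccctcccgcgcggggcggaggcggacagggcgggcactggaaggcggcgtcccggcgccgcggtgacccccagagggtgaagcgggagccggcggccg
The inner window held 3 matches of GGAAA and 1 of the AP-1 motif TGANTCA and 2 of TGACG, and the outer window held none of these and 1 of the E-box CACGTG. The 2 matches of TGACG overlap on opposite strands, within the same letters TGACGTCA. Of 32851 windows of the same length over all genes, 61.3% held GGAAA at least once, 9.42% held it at least 3 times, 7.81% held TGANTCA and 7.15% held CACGTG. Both strands were searched, and GGAAA also contains the ETS core GGAA. Also searched were the GATA motif AGATAA, found in 11.2% of all windows, the E-box CATGTG, found in 14.2%, and the cyclic AMP response core TGACG, found in 20.8%. RefSeq windows were matched for 36 of the 44 members, and 24 of their 48 windows held no GGAAA.

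Nfatc1, the transcription factor gene downstream of calcineurin, had its lowest mean in MC903 resident cells. It was at 279.5, 187, 186, 226 and 117 CPM in untreated, 88.2, 67.9, 90.3, 143 and 110.0 CPM in MC903 resident and 193, 184, 244 and 234 CPM in bone marrow libraries. Bone marrow libraries all lay above MC903 resident ones, while untreated library 5 fell inside the MC903 resident range. The fitted log2 change was -0.99 ± 0.230 (SE; edgeR adjusted p = 0.0206) with MC903 in resident cells and 1.10 ± 0.242 (0.0168) for bone marrow against MC903 resident cells. Both calls rest on the same MC903 resident libraries. Bone marrow and untreated cells differed by 0.10 ± 0.242 (edgeR adjusted p = 0.870). The first call was lost without library 1, 4, 6, 7 or 8 (edgeR adjusted p up to 0.102), the second without library 6 or 7 (up to 0.0624), and both without libraries 7, 8 and 15 together (0.198 and 0.156). Nfatc2 was sparse, from 0 to 22.8 CPM, with 0 counts in 4 libraries.

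The phospholipase, IP3 receptor, STIM and ORAI genes were not called. Plcg1, one of the phospholipases that make IP3, was at 88.5, 114, 142, 94.7 and 48.0 CPM in untreated, 99.0, 110.3, 81.7, 197 and 139.6 CPM in MC903 resident and 161, 189, 194 and 114 CPM in bone marrow libraries. The groups overlapped, and the widest log2 difference was 0.76 ± 0.287 (SE) between bone marrow and untreated cells (edgeR adjusted p = 0.124). Plcg2, its relative in blood cells, was at 62.2, 41.3, 27.6, 57.2 and 17.3 CPM in untreated, 14.7, 49.4, 23.3, 43.99 and 23.1 CPM in MC903 resident and 15.6, 12.0, 41.8 and 44.3 CPM in bone marrow libraries, also overlapping, with edgeR adjusted p-values of 0.575 to 0.923. Stim1, the sensor of the emptied store, was at 259, 269, 248, 228 and 89.6 CPM in untreated, 194, 123, 118, 227 and 99.2 CPM in MC903 resident and 169.7, 118, 171 and 102 CPM in bone marrow libraries. Library 5 again was the low untreated library. The log2 difference of Stim1 between bone marrow and untreated cells was -0.64 ± 0.300 (SE, edgeR adjusted p = 0.219). Leaving out library 5 gave -0.84, which was called (edgeR adjusted p = 0.0497).

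Orai1, the pore subunit of the calcium channel, was at 10.1, 39.5, 36.9, 15.7 and 15.2 CPM in untreated, 22.9, 24.6, 22.9, 25.4 and 41.4 CPM in MC903 resident and 26.6, 82.7, 25.3 and 80.0 CPM in bone marrow libraries. Libraries 13 and 15 stood high and the other bone marrow libraries lay within the resident range. The log2 difference against untreated cells was 1.19 ± 0.444 (SE, edgeR adjusted p = 0.118), and 0.93 (0.184) with library 15 left out. Among the IP3 receptor genes, Itpr2 was the highest per length in every library but was not called. Itpr3 lay at 33.8 to 56.4 CPM in bone marrow and 10.5 to 30.1 CPM in MC903 resident libraries with no overlap, a log2 difference of 1.08 ± 0.405 (SE) that missed the threshold (edgeR adjusted p = 0.168). Its difference between bone marrow and untreated cells (1.13, edgeR adjusted p = 0.105) was called with limma voomWithQualityWeights and without library 4.

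Of the 7 brakes, Spry2 and Cblb were called. Spry2 encodes Sprouty 2, a feedback inhibitor of RAS and ERK signalling by receptor tyrosine kinases. It was at 46.2, 38.6, 60.8, 54.3 and 87.7 CPM in untreated, 11.4, 23.2, 13.8, 20.0 and 34.0 CPM in MC903 resident and 12.3, 19.3, 12.6 and 23.6 CPM in bone marrow libraries. Every library from MC903-treated mice lay below every untreated one. The fitted log2 change was -1.49 ± 0.350 (SE; edgeR adjusted p = 0.0228) with MC903 in resident cells, and bone marrow cells differed from untreated ones by -1.76 ± 0.382 (0.00556). The first call was lost in 6 of 10 fits that each left out 1 library (without library 3, 4, 5, 6, 8 or 9, edgeR adjusted p up to 0.0866) and without libraries 7, 8 and 15 (0.130), and the second held in all 9. Its RefSeq window (GRCm38.p6), shown because Spry2 and Rcan1 were the members called lower in both groups from MC903-treated mice, held 3 matches of GGAAA (capitals, either strand) and none of the other 5 motifs.
Spry2 start, chr14:105896770-105897069, minus strand: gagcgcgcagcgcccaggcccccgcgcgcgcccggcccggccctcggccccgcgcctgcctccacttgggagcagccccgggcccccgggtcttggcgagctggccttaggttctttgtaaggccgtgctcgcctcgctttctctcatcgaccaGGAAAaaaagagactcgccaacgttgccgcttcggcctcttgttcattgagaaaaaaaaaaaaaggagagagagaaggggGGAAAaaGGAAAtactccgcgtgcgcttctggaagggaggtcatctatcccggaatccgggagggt

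Cblb encodes a ubiquitin ligase that tags activated receptors and kinases for degradation. It was at 100.1, 90.4, 78.5, 83.9 and 39.5 CPM in untreated, 51.9, 44.9, 46.5, 52.7 and 45.7 CPM in MC903 resident and 40.7, 45.5, 45.7 and 23.1 CPM in bone marrow libraries. Untreated library 5 lay below every library of the other groups but library 15, and the other 4 untreated libraries lay above all of them. The log2 fold change in bone marrow against untreated cells was -1.02 ± 0.282 (SE, edgeR adjusted p = 0.0309), a call lost without library 1, 2, 3, 4, 11 or 15 (up to 0.0932). It was also lost with no filter on low counts (0.0917 by edgeR), with only the groups compared (0.0633) and without libraries 7, 8 and 15 together (0.0894). Cblb in MC903 resident cells differed from untreated by -0.70 (edgeR adjusted p = 0.207), and it was called without library 5 (0.0479). Sh2b3, which encodes the KIT inhibitor LNK, ran from 136 to 327 CPM in untreated, 112 to 221 CPM in MC903 resident and 49.3 to 179 CPM in bone marrow libraries. It was not called (lowest edgeR adjusted p = 0.119, bone marrow against untreated), except with the DESeq2 Wald test and without the filter on low counts. That log2 difference was -0.84, and -0.57 (edgeR adjusted p = 0.166) with library 15, the lowest, left out.

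The adaptor-like inhibitors Dok1 and Dok2, which recruit RAS GTPase-activating protein, were not called. Dok2 was at 0.168, 27.1, 24.4 and 151 CPM in bone marrow libraries 11, 13, 14 and 15 and between 5.05 and 28.1 CPM in resident libraries. Its log2 difference between bone marrow and untreated cells was 2.28 with library 15 and 0.72 without it (edgeR adjusted p-values 0.180 and 0.585), and it was called without library 11 (0.00542) and with the DESeq2 Wald test. Cbl and Spred1 were not called. Stat5a and Stat5b, which encode the STAT5 factors that KIT and cytokine receptors activate, also passed no threshold; their edgeR adjusted p-values ran from 0.492 to 0.982 and none had an unadjusted p under 0.05.

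**Figure D3:**
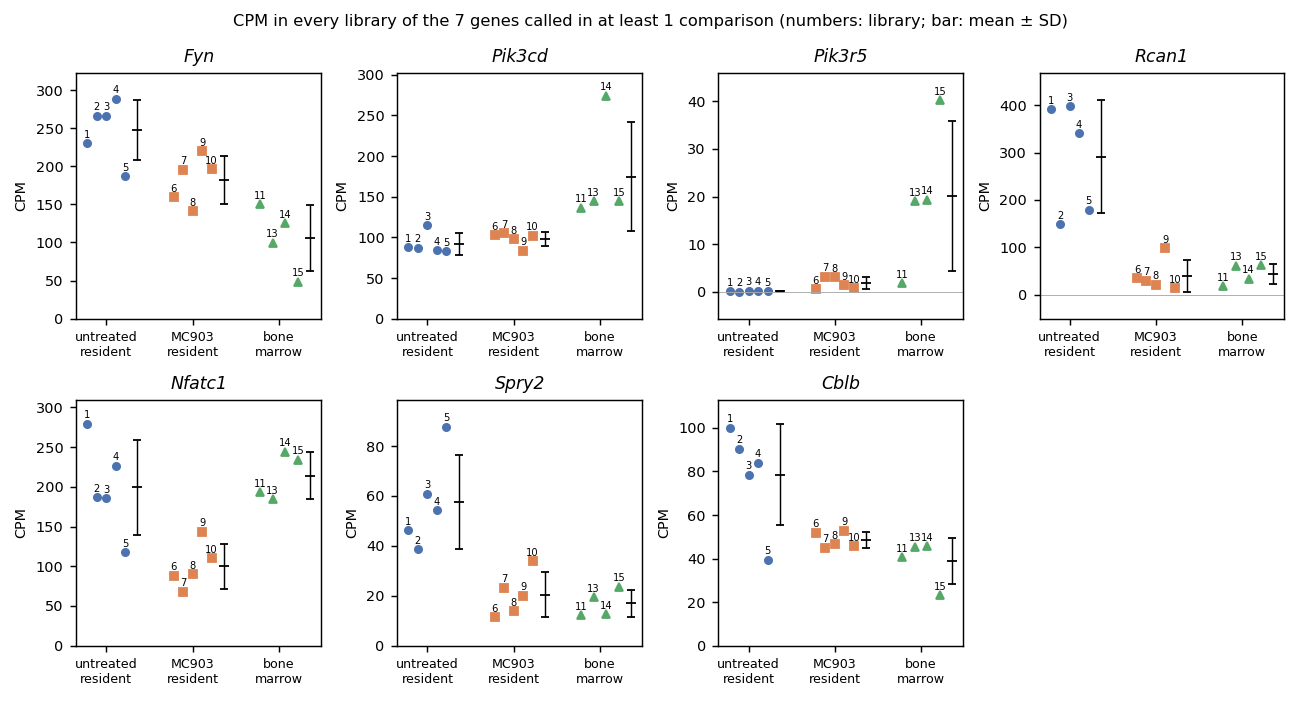
CPM in every library of the 7 genes called in at least 1 comparison, with library numbers and mean ± SD (bars) for the 5 untreated resident, 5 MC903 resident and 4 bone marrow libraries. Rcan1 and Spry2 are lower in all 9 libraries from MC903-treated mice than in any untreated one, Nfatc1 is low in MC903 resident cells, and Pik3cd is highest in bone marrow library 14 at 274 CPM.

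The other genes of the pathway came from a list of 63, of which 62 were tested. With MC903 in resident cells 3 were called, Fcer1a higher and Ms4a2 and Cish lower. That is 4.84%, against 2.25% of all genes and 5.47% of tested genes averaging 10 CPM or more. Fcer1a and Ms4a2 encode the α and β chains of the IgE receptor. They had means of 740.4 and 1949 CPM in untreated and 5740.1 and 1087 CPM in MC903 resident cells. The γ chain gene Fcer1g, at 1648 and 2055 CPM, was not called (edgeR adjusted p = 0.459). Cish, a STAT5 target that feeds back on cytokine signalling, fell from 332 ± 77.1 to 154 ± 42.9 CPM (SD, n = 5 each), or -1.10 ± 0.218 (SE) on the log2 scale (edgeR adjusted p = 0.00590), with no overlap. The Ms4a2 call was lost in 8 of 10 fits leaving out a library, and the Fcer1a call between bone marrow and MC903 resident cells, next, in 6 of 9. In the second comparison, bone marrow against MC903 resident, 3 were called, with Fcer1a lower and Jak2 and Socs1 higher (4.84%, against 2.27% and 5.21%). Jak2 encodes a kinase that activates STAT5, and Socs1 an inhibitor of such kinases. They stood at 85.6 ± 22.6 and 137 ± 43.1 CPM in bone marrow against 32.7 ± 12.7 and 47.6 ± 19.9 CPM in MC903 resident cells (log2 fold changes 1.39 and 1.52, edgeR adjusted p = 0.0200 and 0.0341). Neither was called with DESeq2 size factors, with TMM factors computed on genes averaging 10 CPM or more or without libraries 7, 8 and 15.

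Between bone marrow and untreated cells 5 of the 62 were called (8.06%, against 6.87% and 15.3%), with Fcer1a, Mapk3 and Socs1 higher and Ms4a2 and Pik3r6 lower. In each comparison the share of this list lay below that of genes averaging 10 CPM or more. The counts are thus no result about this list. Mapk3, which encodes the kinase ERK1, was at 30.2 ± 9.59 CPM in untreated and 74.3 ± 26.9 CPM in bone marrow cells (log2 fold change 1.30 ± 0.303, edgeR adjusted p = 0.00986). Kitl, which encodes the KIT ligand, had at most 1.48 CPM in any library and 0 counts in all 4 bone marrow libraries, and was not called.

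Related genes were also set against each other within a library, as ratios of RPKM, which no scaling of libraries changes. Of 15 such ratios, 13 had a value in every library. Lyn over Fyn was 0.919 to 1.19 in untreated, 0.727 to 1.16 in MC903 resident and 1.42 to 3.27 in bone marrow libraries, so bone marrow lay apart from both resident groups. Library 15 had the highest ratio, and the other 3 bone marrow libraries still lay above the resident ones. Itpr2 over Itpr3 was 2.02 to 3.35 in bone marrow against 3.62 to 8.59 in MC903 resident libraries, and overlapped with untreated libraries (1.68 to 7.50). None of the other 11 ratios separated any pair of groups, and none of the 13 separated MC903 resident from untreated cells. These ratios are given as descriptions without a test.

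Other pairs kept one member on top in every library. Lat2 was above Lat in all 14 libraries (group medians of the ratio 2.61, 2.17 and 2.79), Stim1 above Stim2 (3.73, 4.26 and 2.61), Stat5b above Stat5a (2.21, 2.11 and 1.98) and Ptpn6 above Ptpn11 (28.7, 36.2 and 43.3). Pik3cd over Pik3cg had medians of 0.921, 1.77 and 2.51. It ran from 0.689 to 2.42 in untreated and from 1.84 to 4.73 in bone marrow libraries, so the groups overlapped. Ratios with Lat2 or Rasgrp4 carry the limit of exon shared with genes on the opposite strand.

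**Figure D4:**
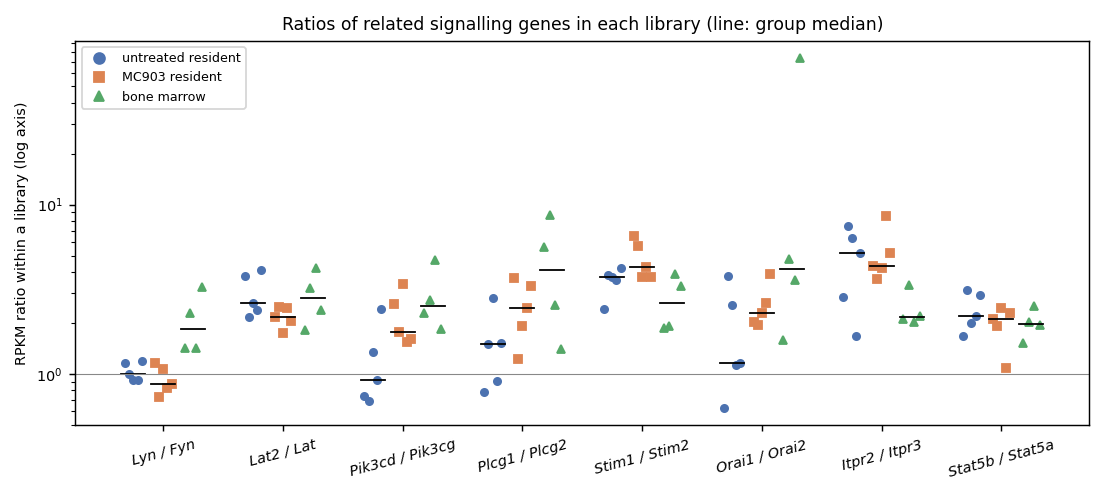
Ratio of RPKM between related genes within each library (log axis) for 8 of the 15 pairs, with a line at each group median. Lyn over Fyn lies between 1.42 and 3.27 in the 4 bone marrow libraries and at or below 1.19 in the 10 resident ones; the Orai1 over Orai2 value of 73.3 is library 15, where Orai2 was at 2.89 CPM.

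The calls differed in how firmly they held. Fyn, Pik3r5, Rcan1 and Spry2 between bone marrow and untreated cells were called in each of 9 fits leaving out a single library and under all 7 further alternatives, with edgeR, limma or DESeq2 adjusted p-values of at most 0.0477. Rcan1 with MC903 in resident cells held in all 10 such fits and 6 of 7 alternatives. Without library 15, bone marrow against untreated cells gave 1.01 for Pik3cd, -2.94 for Rcan1, -1.96 for Spry2 and -0.84 for Cblb on the log2 scale (edgeR adjusted p = 0.00927, 0.0177, 0.00448 and 0.0932). Against MC903 resident cells, Nfatc1 was at 1.06 and Pik3cd at 0.92 without it (0.0234 and 0.0340). The other 6 calls were each lost in at least 1 fit that left out a library.

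**Figure D5:**
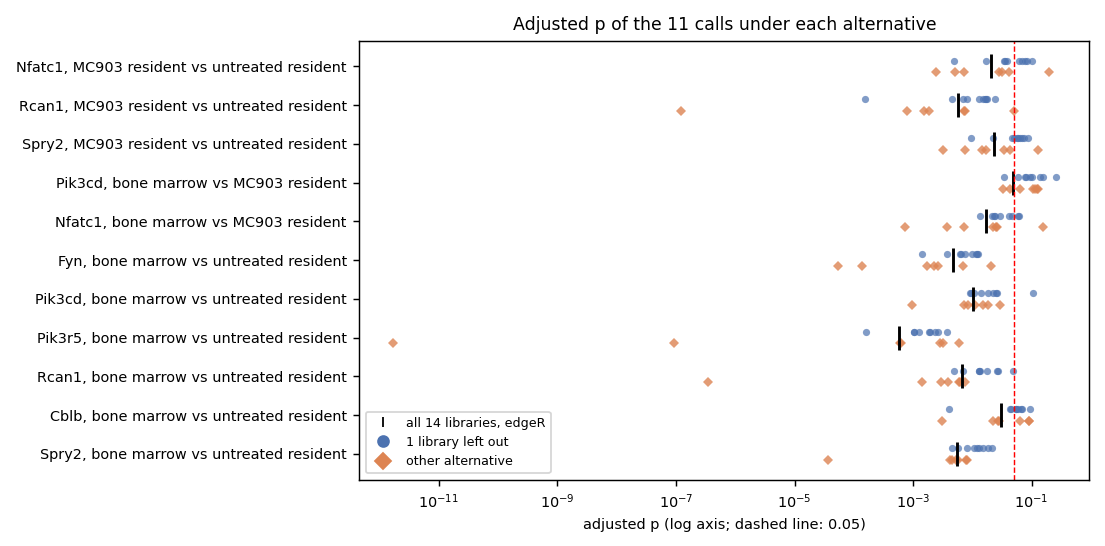
Adjusted p (log axis) of the 11 calls with all 14 libraries in edgeR (bar), with 1 library left out (circles) and under the 7 other alternatives (diamonds); the dashed line is 0.05. The points of Fyn, Pik3r5, Rcan1 and Spry2 between bone marrow and untreated resident cells all lie left of the line, while those of Pik3cd between bone marrow and MC903 resident cells lie mostly right of it.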

How the data were processed

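Counts of reads per gene were measured in 14 libraries of sorted mouse mast cells. The deposited values are raw whole-number counts per gene and library, made by the authors with STAR and featureCounts on mm10, per the submitters' processing notes; versions, the annotation and the strand setting are not given in the sources used here. Per the labels' protocols, complementary DNA came from SMART-Seq HT and libraries from Nextera XT. The exon length column in the deposited table gave RPKM. Of 55487 genes, 55094 had the same identifier and version in GENCODE M21 (GRCm38), all at the same coordinates; 55394 had a symbol.

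Genes passing filterByExpr by group (minimum count 10, minimum total 15) were normalized by TMM, and 1 model with 3 groups was fitted to all 14 libraries in edgeR 4.0.16 (glmQLFit, robust, and glmQLFTest; R 4.3.3). P-values were adjusted by Benjamini-Hochberg over 21014 genes and called under 0.05. Each standard error is the size of the log2 change divided by the root of its F statistic. Alternatives were DESeq2 size factors, TMM factors computed on genes averaging 10 CPM or more, no filter, the DESeq2 1.42.0 Wald test, limma 3.58.1 voomWithQualityWeights, only the groups compared, and leaving out each library or libraries 7, 8 and 15. Genes given library by library were the called members and Kit, Lyn, Syk, Lat, Plcg1, Plcg2, Inpp5d, Stim1 and Orai1; Pik3r6, Dok2 and other values outside this rule, and the ratios, were chosen after values were seen. The members and lists were chosen with earlier results of these data known. No molecular identifiers are named, so reads may share a molecule and a count of reads need not be a count of molecules.

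Marker lists covered core mast cells, basophils, eosinophils, neutrophils, T cells, B cells, macrophages with dendritic cells, fibroblasts and keratinocytes. Outside the mast cell, basophil and macrophage lists, no list summed to more than 84.1 CPM in any library. The 5 B cell markers summed to 0.0696 to 26.7 CPM in bone marrow and 0.179 to 3.80 CPM in untreated libraries. Of the 3 tested, 1 was called higher in bone marrow against untreated cells (edgeR adjusted p = 0.00939), and its part in the members' differences was not tested.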

Additional observations from a re-analysis of the deposited data

Results flagged for a closer look

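Each gene was examined in each group for 1 library lying far from the others, by the gap to the nearest library over the group's range (Dixon's 95% critical value), which chance passes in about 1 in 20 groups. Of 132 groups, 16 passed. Among the untreated resident libraries, library 5 was the lowest for Kit (789 CPM, nearest other library 1723), Inpp5d (306 CPM, nearest other library 505) and Stim1 (89.6 CPM, nearest other library 228). Among the untreated resident libraries, library 1 was the lowest for Lat (216 CPM, nearest other library 273). Among the untreated resident libraries, library 3 was the lowest for Grb2 (228 CPM, nearest other library 254). Among the untreated resident libraries, library 3 was the highest for Pik3cd (115 CPM, nearest other library 88.3). Among the bone marrow libraries, library 14 was the highest for Pik3cd (274 CPM, nearest other library 144) and Ptpn6 (421 CPM, nearest other library 322). Among the bone marrow libraries, library 15 was the highest for Rasgrp1 (3.50 CPM, nearest other library 0.384). Among the MC903 resident libraries, library 9 was the highest for Pik3cb (39.8 CPM, nearest other library 14.3), Rcan1 (98.0 CPM, nearest other library 35.5) and Stat5a (135 CPM, nearest other library 65.8). Among the MC903 resident libraries, library 10 was the highest for Lcp2 (293 CPM, nearest other library 187) and Orai1 (41.4 CPM, nearest other library 25.4). Among the MC903 resident libraries, library 6 was the highest for Itpr2 (215 CPM, nearest other library 153). Among the bone marrow libraries, library 11 was the lowest for Prkcd (180.0 CPM, nearest other library 261).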

How the results depend on the processing

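All 11 calls kept their direction under every alternative run. Of their refits, 74 of 102 with 1 library left out and 65 of 77 under the other alternatives stayed called. The count of members called with MC903 in resident cells (3) was 5 without the filter on low counts, 5 with the DESeq2 Wald test, 5 with limma voomWithQualityWeights, 4 with only the groups compared, 0 without libraries 7, 8 and 15, and 1 to 5 with 1 library left out. Between bone marrow and MC903 resident cells (2) it was 4 with the DESeq2 Wald test, 3 with limma voomWithQualityWeights, 1 with only the groups compared, 0 without libraries 7, 8 and 15, and 0 to 3 with 1 library left out. Between bone marrow and untreated cells (6) it was 10 with the DESeq2 Wald test, 7 with limma voomWithQualityWeights, 5 with only the groups compared, 5 without libraries 7, 8 and 15, and 5 to 7 with 1 library left out. Fits without libraries had fewer samples, and otherwise the cause was not tested.

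Some uncalled differences changed sign. Between bone marrow and MC903 resident cells Inpp5d was -0.071 with DESeq2 size factors and with the DESeq2 Wald test, -0.0801 with TMM factors computed on genes averaging 10 CPM or more, -0.0323 with only the groups compared, and from -0.0610 to 0.20 with 1 library left out. Kit was 0.0654 with limma voomWithQualityWeights and from -0.25 to 0.0563 with 1 left out, Rcan1 -0.39 without libraries 7, 8 and 15 and from -0.0717 to 0.68 with 1 left out. With 1 library left out, Plcg2 ran from -0.41 to 0.11 and Stim1 from -0.25 to 0.0143, and Nfatc1 between bone marrow and untreated cells from -0.0356 to 0.26.

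Over all genes, the 473, 477 and 1443 calls became 1072, 1720 and 2757 with the DESeq2 Wald test and 1358, 2017 and 2194 with limma voomWithQualityWeights. They were 662, 315 and 1243 with only the groups compared, 253, 339 and 1405 without libraries 7, 8 and 15, and 659, 748 and 1610 without the filter on low counts. Between bone marrow and MC903 resident cells 277 genes were higher and 200 lower, against 167 and 242 with DESeq2 size factors and 178 and 254 with TMM factors computed on genes averaging 10 CPM or more. No paired analysis was possible because the labels give no replicate number that is shared between groups; whether any libraries came from the same mice is not given in the sources used here.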

Other observations

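The members were unevenly low across libraries. Library 5 was the lowest untreated library for 22 of the 44 genes, library 8 the lowest MC903 resident library for 15 and library 15 the lowest bone marrow library for 19, while library 15 was also the highest for 13 and library 14 for 17. The summed level of the 44 genes was 6416 CPM in library 5 against 8136 to 8725 CPM in the other untreated libraries. It was 4640.2 to 7384 CPM in MC903 resident and 5029.9 to 7478 CPM in bone marrow libraries.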
